A study of Homo sapiens with 21 samples.

Results

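The death receptors and the caspase-8 complex were followed in hTERT-HPNE cells through 9 genes, taken by symbol from the 23368 rows of the expression table. They are FAS, TNFRSF10A, TNFRSF10B, TNFRSF10C, TNFRSF10D, FADD, CASP8, CASP10 and CFLAR, and each had 1 row and passed the filter, which left out genes at 0 in every library and kept 19694. The cells are an immortalized nontransformed pancreatic line, and RNA was sequenced from 21 libraries in 7 groups of 3 biological replicates. One group was untreated cells (time point 0), and the others were cells harvested 4, 8 or 24 h after 300 µM H2O2, an oxidant, or 400 ng/ml NCS (neocarzinostatin), a radiomimetic drug that breaks both DNA strands. All groups were the same cell line, and no untreated cells were harvested at the later times, so time in culture and treatment cannot be told apart in a comparison with untreated cells. Values are rLog values, which are log2 normalized counts that the authors shrank toward each gene's mean, most strongly for genes with few reads, so that every difference below is on that shrunken scale. Bulk RNA cannot tell a change in the cells from a change in which cells remained to be harvested.

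Death receptors sit in the plasma membrane and carry a cytoplasmic death domain. When FAS binds FAS ligand, or when TNFRSF10A or TNFRSF10B binds TRAIL, the clustered death domains recruit the adaptor FADD, and FADD recruits procaspase-8 and procaspase-10, which activate each other and go on to cleave their substrates. TNFRSF10C and TNFRSF10D bind TRAIL but lack a working death domain and are known as decoy receptors, and CFLAR encodes c-FLIP, a caspase-8 relative without protease activity that holds the complex in check. FAS and the TRAIL receptors are known p53 target genes.

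The libraries resembled each other in scale, with medians between 7.14 and 7.19. Replicate 2 of H2O2 at 8 h stood apart. Its mean Euclidean distance over all tested genes to the other replicates of its group was 14.9, against 13.1 and 13.3 for those replicates and 9.28 to 11.0 for the libraries of the other groups. Its distance to the mean of NCS at 8 h was 20.4, against 27.4 and 27.2 for replicates 1 and 3. Results at 8 h in H2O2 are therefore given with and without it. Markers of the line's mesenchymal and progenitor features were high (VIM 16.79 to 17.25, NES 11.78 to 12.28), as was KRT18 (11.38 to 11.85) among the markers of duct epithelium, while KRT7, KRT8 and SOX9 lay between 5.78 and 8.28, and EPCAM, CFTR and KRT19 lay below 1 in every library. PRSS1, CELA3A, INS and CD3E, markers of acinar, endocrine and T cells, were at 0 in all libraries, CPA1, GCG, CHGA and PTPRC lay below 1, and the endothelial marker PECAM1 lay between 2.02 and 2.42.

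In untreated cells the members differed widely in level. Per kilobase of annotated exon, on the log2 scale, TNFRSF10D was highest at 10.69, followed by TNFRSF10B at 9.73, FADD at 9.08, FAS at 8.32, CFLAR at 6.49, CASP8 at 5.67 and TNFRSF10A at 4.91. TNFRSF10C at 1.44 and CASP10 at 1.30 were lowest. Per kilobase of the longest annotated transcript, TNFRSF10B was at 10.04, FADD at 9.08 and FAS at 9.05, with CFLAR at 7.11 and CASP8 at 6.98, and CASP10 at 1.66 and TNFRSF10C at 1.56 changed places. Each neighbor in the first order was separated by more than the spread of the untreated replicates, whose SD was 0.01 to 0.05, but by the longest transcript FADD and FAS did not differ beyond that spread, and the order of TNFRSF10C and CASP10 rests on the length used. The spread of replicates does not measure the error from the length used, which moved CASP8 from 5.67 to 6.98 and FAS from 8.32 to 9.05. By either length, untreated cells held far more transcript of one decoy receptor, TNFRSF10D, than of the other, TNFRSF10C.

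The 9 genes lie at 4 places in the genome (GENCODE v29, GRCh38, matched by name because the files use hg19). The 4 TRAIL receptor genes form a cluster on chromosome 8, between 23020133 and 23225126. CFLAR (chromosome 2, 201116104 to 201176687), CASP10 (201182881 to 201229406) and CASP8 (201233443 to 201287711) stand in a row on the plus strand, with 6193 bases between the end of CFLAR and the start of CASP10 and 4036 bases between CASP10 and CASP8. FAS lies on chromosome 10 (88990582 to 89015785, plus strand) and FADD on chromosome 11 (70203163 to 70207390, plus strand). No pair of members shared a 50-base word of annotated transcript sequence. FAS shares 380 of its 4253 exonic bases with ACTA2 on the opposite strand, TNFRSF10B shares 67 of 5158 with RHOBTB2, TNFRSF10A shares 224 and 266 of 2951 with TNFRSF10A-AS1 and AC100861.1, FADD shares 1011 of 1841 with AP000879.1, and CFLAR shares 777 and 1488 of 22529 with CFLAR-AS1 and the pseudogene IMPDH1P10, all on the opposite strand. On the same strand, TNFRSF10C shares 485 and 249 of its 1868 exonic bases with AC107959.4 and AC107959.5, and CFLAR shares 445 with AC007283.1, so that reads there could belong to either gene. The kit kept strand, but the strand setting of the counting is not given in the sources used here.

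All 9 members varied over the 7 groups at an adjusted p under 0.05 in limma's F test, as did 70.6% of all genes tested. Against untreated cells, 8 of the 9 members changed in H2O2 at 4 h at an adjusted p under 0.05, where 45.9% of all genes did, and 4 changed in NCS at 4 h, against 17.2% of all genes. At 8 h, 7 members changed in H2O2 (37.4% of all genes) and 5 in NCS (23.9%). At 24 h, 7 changed in H2O2 (40.0%) and 7 in NCS (38.0%). Without replicate 2 of H2O2 at 8 h, 7 changed there as well, and without replicate 1 of that group 4 did. FAS, TNFRSF10A, TNFRSF10B and TNFRSF10D rose in all 6 comparisons. With the added requirement of a rise over 0.58, or 1.5-fold on the rLog scale, 3 members rose at 4 h in each treatment, 4 in H2O2 and 3 in NCS at 8 h, and 4 at 24 h in each. Such rises were seen for 2.25% of all genes in H2O2 and 0.457% in NCS at 4 h, for 1.38% and 0.442% after 8 h, and for 1.59% and 0.944% after 24 h. The members past this limit were FAS, TNFRSF10A, TNFRSF10B and TNFRSF10D, and CASP10 in H2O2 at 4 h. Libraries of H2O2 at 4, 8 and 24 h did not overlap the untreated ones for 9, 7 and 7 members. Of all genes, 49.5%, 42.0% and 59.7% did not. For NCS it was 5, 7 and 8 members, against 30.0%, 33.8% and 44.5% of all genes.

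**Figure D1:**
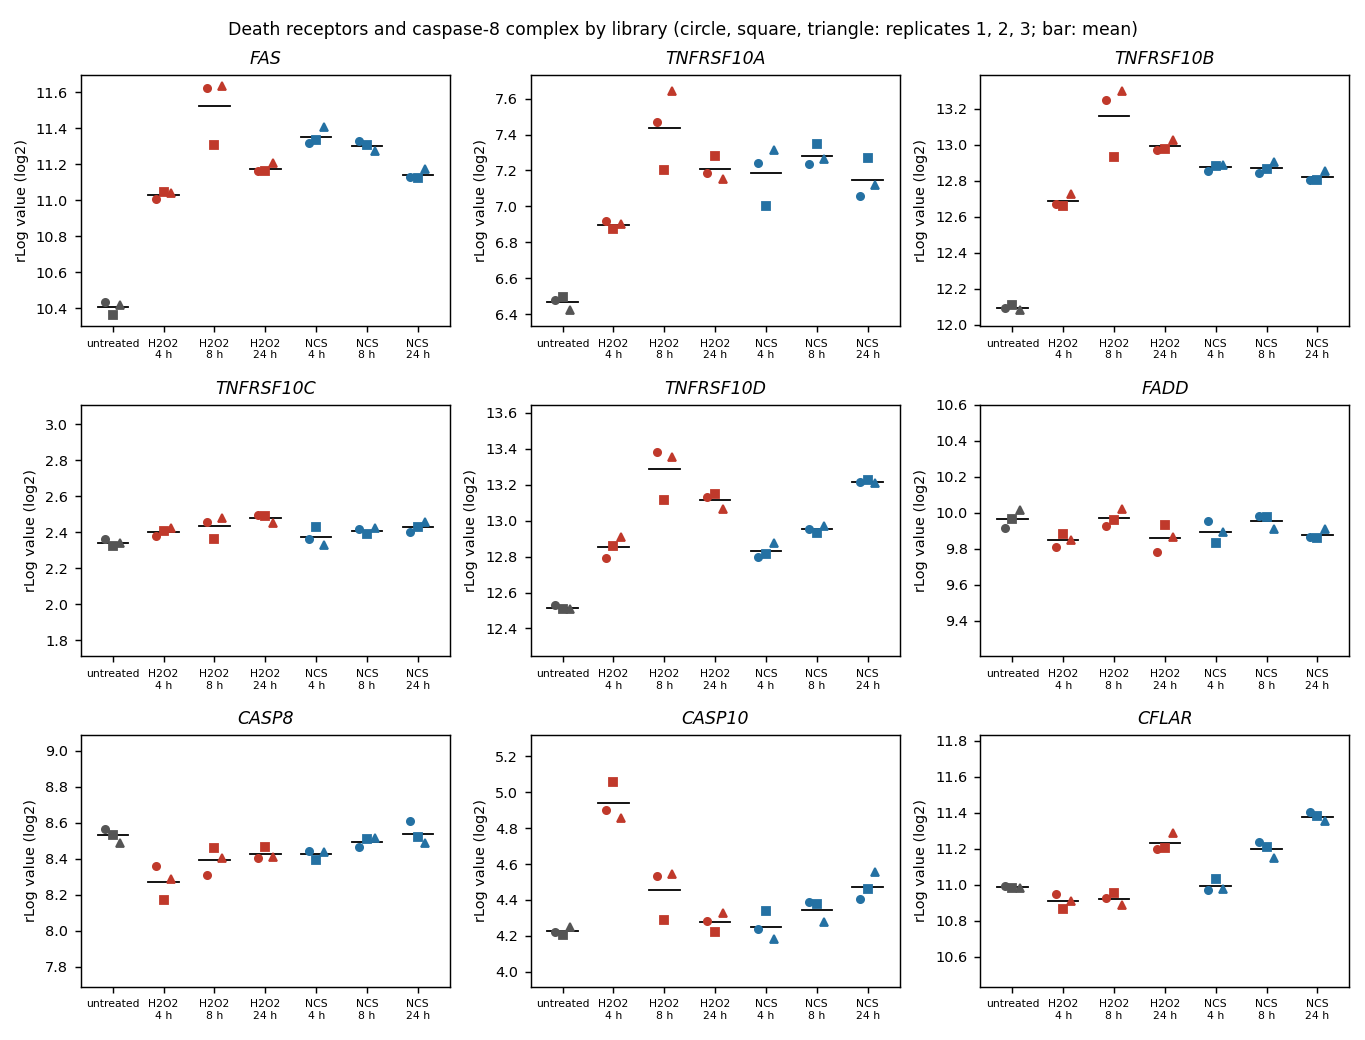
rLog value (log2 scale) of each member in each of the 21 libraries, by group on the horizontal axis, with circles, squares and triangles for replicates 1, 2 and 3 and bars for the group means. All panels span the same range of log2 units, and replicate 2 (square) of H2O2 at 8 h lies below the other H2O2 libraries at 8 h for FAS (11.31 against 11.63 and 11.64), TNFRSF10A, TNFRSF10B and TNFRSF10D.

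FAS, the receptor of FAS ligand, was at rLog values of 10.44, 10.36 and 10.42 in the 3 untreated libraries. In H2O2 it measured 11.01, 11.04 and 11.04 after 4 h, 11.63, 11.31 and 11.64 after 8 h and 11.16, 11.16 and 11.21 after 24 h. In NCS it measured 11.32, 11.34 and 11.41 after 4 h, 11.33, 11.31 and 11.28 after 8 h and 11.13, 11.12 and 11.17 after 24 h. Every treated library lay above every untreated one. The rises in H2O2 at 4, 8 and 24 h were 0.62, 1.12 and 0.77 (SE 0.06 each, limma's adjusted p = 6.27e-08, 1.04e-10 and 2.12e-09), of which that at 8 h is 2.17-fold on the rLog scale. It came to 1.23 when replicate 2 of H2O2 at 8 h was left out. The rises in NCS were 0.95, 0.90 and 0.74 (adjusted p = 1.36e-09, 1.39e-09 and 4.63e-09). The mean was highest at 4 h in NCS and at 8 h in H2O2. The SEs rest on a spread shared by all 7 groups. Among replicates, the SD of FAS was 0.19 in H2O2 at 8 h and 0.02 to 0.05 in the other groups. In H2O2 at 8 h the SDs of TNFRSF10A, TNFRSF10B and TNFRSF10D were 0.22, 0.20 and 0.15. ACTA2, the gene that overlaps FAS, differed from untreated cells by 0.13, -0.22 and -0.31 in H2O2 at 4, 8 and 24 h and by -0.06, -0.04 and 0.14 in NCS.

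Reference windows of 250 bases before to 50 bases after annotated transcript starts were searched for sequence motifs (RefSeq, GRCh38.p14). They covered FAS (3 windows), CASP8 (3), CFLAR (4) and FADD (1). The best match to the 20-base p53 consensus, a palindrome read on both strands at once, had 2 mismatches and lay in a FAS window. Of all 35116 windows, 0.649% held a match as good. That share is per window, while the FAS match is the best of the 11 windows of members. The stretch is shown because FAS was among the strongest risers. It spans chr10:88991259-88991378 on the plus strand, with the match at 88991309 to 88991328 in capitals. This match lies in an intron of 11 and an exon of 2 of the 20 FAS transcripts in GENCODE v29.
FAS: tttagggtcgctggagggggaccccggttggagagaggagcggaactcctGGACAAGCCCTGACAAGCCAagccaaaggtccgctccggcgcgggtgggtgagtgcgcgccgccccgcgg
The best match in a CFLAR window had 3 mismatches, and 5.2% of all windows held a match with 3 or fewer. The best matches in the CASP8 and FADD windows had 6 mismatches. A loose form of the NF-kB motif was searched on both strands as GGG, any pair of bases, TT, any single base and CC. It occurred in 5.68% of all windows, once in a FAS window and once in a CASP8 window. Both are shown, with the motif in capitals, because they carry the same 10 bases. The FAS stretch is chr10:88990572-88990601 and the CASP8 stretch chr2:201233376-201233405, both on the plus strand.
FAS: tccccaacccGGGCGTTCCCcagcgaggct
CASP8: gagacgaggaGGGCGTTCCCtggggagtgg
The AP-1 motif was searched as TGANTCA with N for any base, though its usual form has C or G there. This loose pattern occurred in 1 of 3 FAS windows, 2 of 3 CASP8 windows, 1 of 4 CFLAR windows and the FADD window. Of all windows, 7.71% held it. The CASP8 matches read TGAGTCA and TGACTCA, which is the usual form. Those in FAS, CFLAR and FADD read TGAATCA, which is not. The pattern overlapped neither of the matches above. These matches are letters in a reference window, and binding was not measured in these libraries.

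TNFRSF10B, the more abundant TRAIL receptor with a death domain, was at 12.09, 12.11 and 12.08 in untreated cells. Values in H2O2 were 12.67, 12.66 and 12.73 after 4 h, 13.25, 12.93 and 13.30 after 8 h and 12.97, 12.98 and 13.03 after 24 h. Values in NCS were 12.85, 12.88 and 12.89 after 4 h, 12.84, 12.86 and 12.90 after 8 h and 12.80, 12.80 and 12.86 after 24 h. The treated and untreated ranges did not overlap in any group, and the NCS libraries all lay between 12.80 and 12.90. It rose in H2O2 by 0.59, 1.07 and 0.90 at the successive times (SE 0.06 each, limma's adjusted p = 2.08e-07, 2.78e-10 and 4.32e-10), and the middle value was 1.18 without replicate 2. The rises in NCS were 0.78, 0.78 and 0.73 (adjusted p = 2.87e-08, 1.54e-08 and 9.72e-09). TNFRSF10B was the member farthest above untreated cells in H2O2 at 24 h.

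TNFRSF10A, the other TRAIL receptor with a death domain, was at 6.48, 6.50 and 6.42 in untreated cells. In H2O2 the libraries read 6.92, 6.87 and 6.90 after 4 h, 7.47, 7.20 and 7.64 after 8 h and 7.19, 7.28 and 7.15 after 24 h. In NCS the libraries read 7.24, 7.002 and 7.31 after 4 h, 7.23, 7.35 and 7.26 after 8 h and 7.06, 7.27 and 7.12 after 24 h. All treated libraries again lay above the untreated ones. The rises were 0.43, 0.97 and 0.74 in H2O2 at 4, 8 and 24 h (SE 0.09, adjusted p = 0.000638, 9.33e-08 and 1.56e-06 from limma) and 0.72, 0.81 and 0.68 in NCS (adjusted p = 1.14e-05, 1.45e-06 and 4.8e-06). The rise at 8 h was 1.09 with replicate 2 of that group left out.

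TNFRSF10D, the abundant decoy receptor, whose death domain is truncated, was at 12.53, 12.51 and 12.51 in untreated cells. The H2O2 libraries held it at 12.79, 12.86 and 12.91 after 4 h, 13.38, 13.12 and 13.35 after 8 h and 13.13, 13.15 and 13.07 after 24 h. The NCS libraries held it at 12.80, 12.81 and 12.88 after 4 h, 12.96, 12.93 and 12.97 after 8 h and 13.21, 13.23 and 13.21 after 24 h. All treated libraries lay above the untreated ones, and the 3 NCS groups were in order of time with no overlap. In H2O2 it rose by 0.34, 0.77 and 0.60 (SE 0.05, adjusted p = 1.32e-05, 1.02e-09 and 6.36e-09 from limma). In NCS it rose by 0.31, 0.44 and 0.70 (adjusted p = 0.000107, 1.45e-06 and 7.93e-10). Leaving out replicate 2 of H2O2 at 8 h gave a rise of 0.85 there. In NCS, the step of TNFRSF10D from 4 h to 8 h (0.12, adjusted p = 0.114) did not pass with all libraries and passed without replicate 2 of H2O2 at 8 h (adjusted p = 0.00418), under quantile normalization (0.16, adjusted p = 0.0189), with a mean of at least 5 required (adjusted p = 0.03) and in a fit of only the groups compared (adjusted p = 0.0175). From 8 h to 24 h it rose by 0.26 (adjusted p = 0.000295), while FAS fell by 0.16 (-0.16, adjusted p = 0.0384). The fall of FAS did not pass when any 1 library of NCS at 8 h or 24 h was left out (adjusted p = 0.0532 to 0.108), without the filter on low values (adjusted p = 0.0693) or without the mean-variance trend (adjusted p = 0.0561).

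TNFRSF10C, the decoy anchored to the membrane by a lipid, was low, with all 21 libraries between 2.32 and 2.50. At 24 h in H2O2 it was 0.14 higher than in untreated cells (SE 0.03, limma's adjusted p = 0.00171). Smaller rises, of 0.09 in each, passed in H2O2 at 8 h and NCS at 24 h (adjusted p = 0.033 and 0.0385), and both were lost when untreated replicate 2 (0.08 in each, adjusted p = 0.106 and 0.122) or replicate 3 (0.09, adjusted p = 0.0747 and 0.0842) was left out. The H2O2 call at 8 h was also lost without H2O2 replicate 1 (0.08, adjusted p = 0.114) or 3 (0.07, adjusted p = 0.164), and the NCS call at 24 h without NCS replicate 2 (0.09, adjusted p = 0.079) or 3 (0.07, adjusted p = 0.135). Quantile normalization removed both calls (0.05 and 0.08, adjusted p = 0.228 and 0.064), and the H2O2 call was lost with aligned medians (adjusted p = 0.0693) and in a fit of only the groups compared (adjusted p = 0.127). Leaving out H2O2 replicate 2 gave 0.13 at 8 h (adjusted p = 0.00329). At such low values the rLog shrinkage is strongest, and the size of these differences says little about the change in counts.

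**Figure D2:**
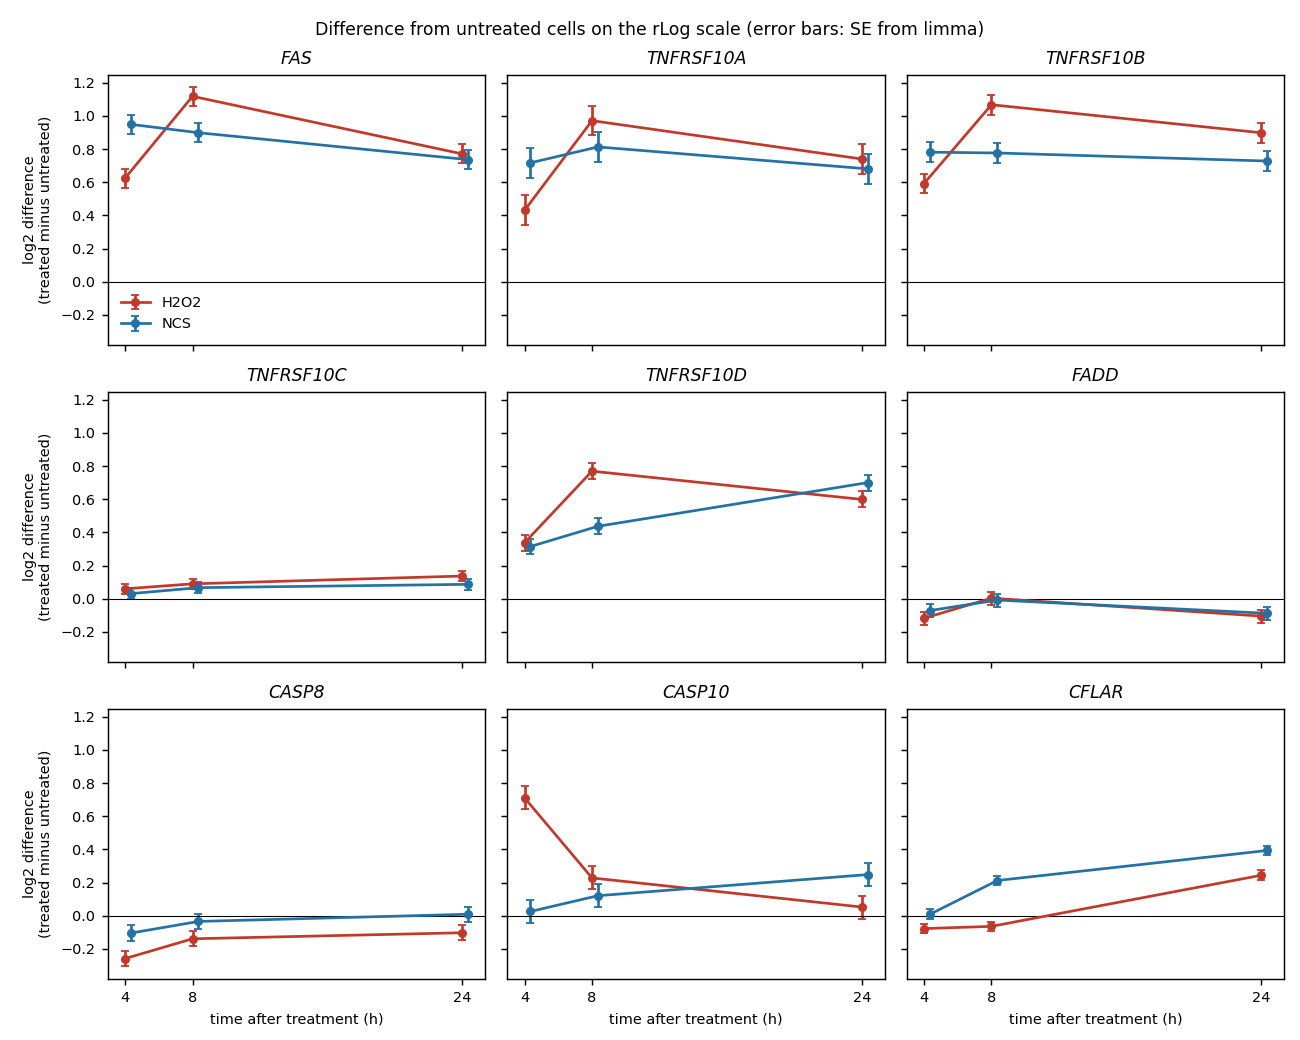
Difference from untreated cells (log2, rLog scale, vertical axis) against time after treatment in hours for each member, with H2O2 in red and NCS in blue, shifted slightly to the right for visibility, and error bars of 1 SE from limma. FAS, TNFRSF10A, TNFRSF10B and TNFRSF10D are above 0 throughout with their highest H2O2 mean at 8 h, while CASP10 in H2O2 starts at 0.71 and falls, and CFLAR climbs in NCS to 0.39.

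Within a library, the difference between the abundant decoy and the abundant death receptor does not depend on gene length when groups are compared. Its level and sign are not corrected for length. TNFRSF10D minus TNFRSF10B was 0.44, 0.40 and 0.43 in untreated cells. It was 0.12, 0.20 and 0.18 after 4 h of H2O2, 0.13, 0.19 and 0.05 after 8 h and 0.16, 0.17 and 0.04 after 24 h. In NCS it was -0.05, -0.07 and -0.01 after 4 h, 0.11, 0.07 and 0.07 after 8 h and 0.41, 0.42 and 0.35 after 24 h. Every library of H2O2, and of NCS at 4 h and 8 h, lay below every untreated library. NCS at 24 h overlapped the untreated range (mean difference -0.03, p = 0.4, exact two-sided permutation). H2O2 and NCS at 24 h did not overlap and differed by -0.27 (exact two-sided permutation p = 0.1, the lower limit of a test with 3 libraries per group). By the group means, the margin of the decoy over TNFRSF10B was near its untreated value in NCS at 24 h and narrower in H2O2. With so few libraries the test cannot show that groups are equal.

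**Figure D3:**
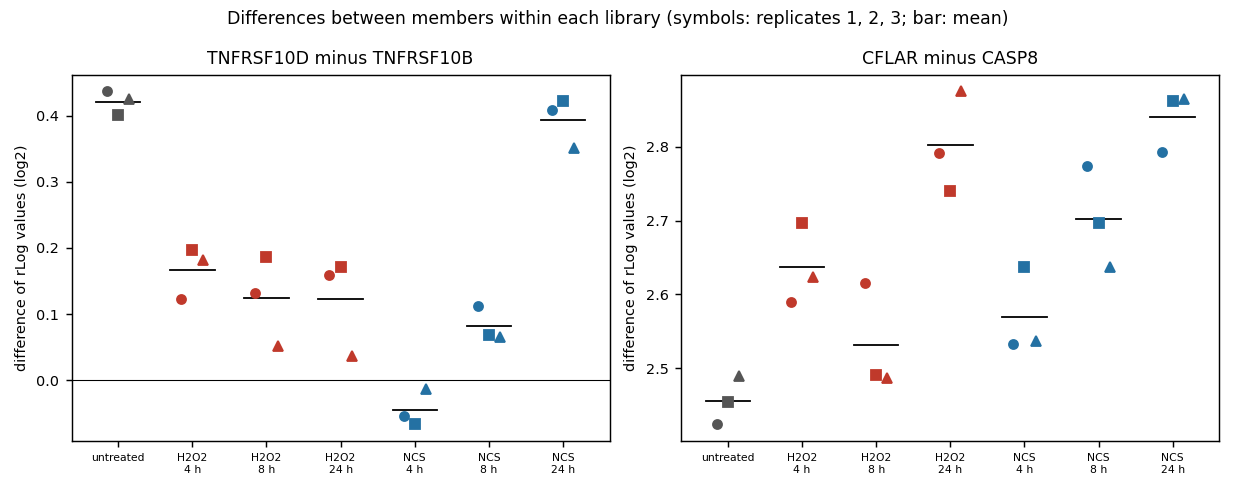
Difference of rLog values (log2 units, vertical axis) between 2 members within each library, by group, with symbols for replicates 1, 2 and 3 and bars for the means; left, TNFRSF10D minus TNFRSF10B, and right, CFLAR minus CASP8. On the left, NCS at 24 h (mean 0.39) lies near the untreated mean (0.42) while H2O2 at 24 h is at 0.12, and on the right both treatments at 24 h lie above 2.7, with untreated libraries at 2.42 to 2.49.

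FADD, the adaptor, stayed within 9.78 to 10.02 in all libraries. Against untreated cells it was lower in H2O2 at 4 h and 24 h (-0.12 and -0.10, SE 0.04, limma's adjusted p = 0.0211 and 0.0431), and the other 4 comparisons did not pass. The call at 4 h was lost without untreated replicate 3 (-0.09, adjusted p = 0.103) or H2O2 replicate 1 (-0.10, adjusted p = 0.084), and under quantile normalization (-0.07, adjusted p = 0.162). The call at 24 h was lost in 9 of the 21 fits that each left out 1 library. These were the fits without untreated replicate 2 (-0.11, adjusted p = 0.0841) or 3 (-0.08, adjusted p = 0.188), without H2O2 replicate 1 (-0.07, adjusted p = 0.245) or 3 (-0.11, adjusted p = 0.0783) at 24 h, and, at an adjusted p of 0.0506 to 0.052 and the same difference, without H2O2 replicate 3 at 4 h or NCS replicate 3 at 4 h, 2 at 8 h, or 1 or 2 at 24 h. With all libraries it was also lost under quantile normalization (-0.07, adjusted p = 0.228), without the filter on low values (adjusted p = 0.0609) and in a fit of only the groups compared (adjusted p = 0.123).

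CASP8, the initiator caspase, was at 8.57, 8.53 and 8.49 in untreated cells. With H2O2 it measured 8.36, 8.17 and 8.29 after 4 h, 8.31, 8.46 and 8.40 after 8 h and 8.41, 8.47 and 8.41 after 24 h. With NCS it measured 8.44, 8.40 and 8.44 after 4 h, 8.46, 8.51 and 8.51 after 8 h and 8.61, 8.52 and 8.49 after 24 h. All 9 H2O2 libraries, and those of NCS at 4 h, lay below the untreated ones. Such separation, in either direction, was seen for 49.5%, 42.0% and 59.7% of all genes in H2O2 at 4, 8 and 24 h. In NCS at 4 h it was seen for 30.0%. CASP8 fell in H2O2 at 4 h and 8 h (-0.26 and -0.14, SE 0.05 each, limma's adjusted p = 0.000157 and 0.0241). By 24 h its difference of -0.10 was short of the threshold (adjusted p = 0.0937). None of its NCS differences passed (-0.10, -0.03 and 0.01, adjusted p = 0.153, 0.749 and 0.95). The call at 8 h was lost without untreated replicate 1 (-0.12, adjusted p = 0.0925) or 2 (-0.14, adjusted p = 0.056) and without H2O2 replicate 1 (-0.10, adjusted p = 0.142), and the difference was -0.17 (adjusted p = 0.00863) without H2O2 replicate 2. It was also lost under quantile normalization (-0.11, adjusted p = 0.0668) and in a fit of only the groups compared (adjusted p = 0.0836). The difference at 24 h passed with the medians of the libraries aligned (-0.12, adjusted p = 0.0387) and in a fit of only the groups compared (adjusted p = 0.0472).

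CASP10, the second initiator caspase, lies next to CASP8. It was at 4.22, 4.21 and 4.25 in untreated cells, 4.90, 5.06 and 4.85 after 4 h of H2O2, 4.53, 4.29 and 4.54 after 8 h, and 4.28, 4.22 and 4.33 after 24 h. Under NCS the values were 4.24, 4.34 and 4.18 after 4 h, 4.39, 4.38 and 4.28 after 8 h and 4.41, 4.46 and 4.56 after 24 h. The H2O2 libraries at 4 h lay above all others. The first H2O2 rise was 0.71 (SE 0.07, limma's adjusted p = 1.45e-07), or 1.64-fold on the rLog scale, followed by 0.23 (adjusted p = 0.0141) and, by 24 h, a difference of 0.05 (adjusted p = 0.669). The value at 8 h was 0.31 (adjusted p = 0.000886) without replicate 2 of that group, and it did not pass without replicate 1 (0.19, adjusted p = 0.0715) or 3 (0.18, adjusted p = 0.077) or in a fit of only the groups compared (adjusted p = 0.0811). NCS gave a rise of 0.25 at 24 h (adjusted p = 0.00757), after differences of 0.03 and 0.12 that did not pass (adjusted p = 0.97 and 0.261). CASP10 lies at low values, and among all genes with a mean value under 5, 31.8% rose in H2O2 at 4 h and 2.05% rose by more than 0.58. CFLAR, which ends 6193 bases before CASP10 on the same strand, fell slightly at that time, as given next, and the part of neighboring transcription in the CASP10 value was not tested.

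CFLAR, the inhibitor, was at 10.99, 10.98 and 10.98 in untreated cells. Under H2O2 the values were 10.95, 10.87 and 10.91 after 4 h, 10.93, 10.95 and 10.89 after 8 h and 11.20, 11.21 and 11.29 after 24 h. In NCS its values were 10.97, 11.03 and 10.98 after 4 h, 11.24, 11.21 and 11.15 after 8 h and 11.40, 11.38 and 11.35 after 24 h. NCS libraries were above the untreated ones from 8 h on, and H2O2 libraries only at 24 h. From a difference of 0.01 at 4 h (adjusted p = 0.972), CFLAR in NCS came to rises of 0.21 and 0.39 at the later times (SE 0.03 each, limma's adjusted p = 1.77e-05 and 2.13e-09). In H2O2 it had risen by 0.24 at 24 h (adjusted p = 1.22e-06). Before that, H2O2 gave a fall at 4 h (-0.08, adjusted p = 0.0363) and -0.06 at 8 h, which did not pass (adjusted p = 0.0978). The fall at 4 h was lost under quantile normalization (-0.05, adjusted p = 0.211). It was also lost without any 1 untreated replicate (-0.07 to -0.08, adjusted p = 0.0633 to 0.0863) and without H2O2 replicate 2 (-0.06, adjusted p = 0.17) or 3 (-0.08, adjusted p = 0.0674). Within a library, CFLAR minus CASP8 was 2.42, 2.45 and 2.49 in untreated cells, 2.79, 2.74 and 2.88 in H2O2 at 24 h and 2.79, 2.86 and 2.87 in NCS at 24 h. Its mean differed from untreated cells by 0.18, 0.08 and 0.35 in H2O2 and by 0.11, 0.25 and 0.38 in NCS at the successive times. The treated and untreated libraries overlapped in H2O2 at 8 h (exact two-sided permutation p = 0.2) and not in the other 5 groups (p = 0.1 in each, the smallest that 3 against 3 libraries allow).

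The design also sets H2O2 against NCS at each time, which compares oxidative stress with DNA double-strand breaks. At 4 h, 6 of the 9 members differed at an adjusted p under 0.05 from limma, where 44.4% of all genes did. Death receptors were lower in H2O2 than in NCS: FAS by 0.32 (-0.32, SE 0.06, adjusted p = 0.000137), TNFRSF10A by 0.29 (-0.29, adjusted p = 0.0142) and TNFRSF10B by 0.19 (-0.19, adjusted p = 0.0151). CASP8 (-0.15, adjusted p = 0.0114) and CFLAR (-0.09, adjusted p = 0.0212) were lower as well, and CASP10 was higher by 0.69 (SE 0.07, adjusted p = 2.3e-07). TNFRSF10D, the decoy, differed by 0.02 (adjusted p = 0.756, 95% interval -0.08 to 0.12). The TNFRSF10A call was lost without NCS replicate 1 (-0.26, adjusted p = 0.0531) or 3 (-0.22, adjusted p = 0.0805) at 4 h, the CASP8 call without H2O2 replicate 2 (-0.10, adjusted p = 0.082), under quantile normalization (-0.11, adjusted p = 0.0552) or with the 2 groups fitted alone (adjusted p = 0.0504), and the CFLAR call without H2O2 replicate 2 (-0.06, adjusted p = 0.111) or NCS replicate 2 (-0.07, adjusted p = 0.106).

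At 8 h, 4 of the 9 members differed (34.1% of all genes), and 3 of the 5 receptors were higher in H2O2. FAS was higher by 0.22 (SE 0.06, adjusted p = 0.00547 from limma), TNFRSF10B by 0.29 (adjusted p = 0.000808) and TNFRSF10D by 0.33 (SE 0.05, adjusted p = 2.63e-05), while CFLAR was lower by 0.28 (-0.28, SE 0.03, adjusted p = 7.6e-07). TNFRSF10A differed by 0.16 (adjusted p = 0.201, 95% interval -0.03 to 0.35) and TNFRSF10C by 0.02 (adjusted p = 0.664, 95% interval -0.04 to 0.09). Without replicate 2 of H2O2, 7 members differed: FAS by 0.33, TNFRSF10A by 0.28 (adjusted p = 0.0115), TNFRSF10B by 0.41, TNFRSF10D by 0.42, CASP8 by -0.14 (adjusted p = 0.034), CASP10 by 0.19 (adjusted p = 0.0305) and CFLAR by -0.29. With all libraries, CASP8 differed by -0.10 (adjusted p = 0.0947) and CASP10 by 0.11 (adjusted p = 0.276). In a fit of the 2 groups alone, FAS (adjusted p = 0.127) and TNFRSF10B (adjusted p = 0.072) did not pass. For FAS, the value of H2O2 replicate 2 (11.31) lay inside the NCS range of 11.28 to 11.33, while the other H2O2 libraries lay above it.

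At 24 h, 2 members differed, against 21.9% of all genes. TNFRSF10B was higher in H2O2 by 0.17 (SE 0.06, adjusted p = 0.0488 from limma) and CFLAR lower by 0.15 (-0.15, SE 0.03, adjusted p = 0.000865). The TNFRSF10B call was near the threshold and did not pass in 18 of 21 fits with 1 library left out, without the filter on low values (adjusted p = 0.0891) or without the mean-variance trend (adjusted p = 0.0728). Leaving out H2O2 replicate 1, 2 or 3 at 24 h gave 0.18, 0.18 and 0.15 (adjusted p = 0.0819, 0.089 and 0.149), and leaving out NCS replicate 1, 2 or 3 at 24 h gave 0.16, 0.16 and 0.19 (adjusted p = 0.126, 0.126 and 0.0674). Without replicate 2 of H2O2 at 8 h, which is not in this comparison but adds to the shared estimate of the spread, the adjusted p was 2.54e-05, and TNFRSF10D (-0.10, adjusted p = 0.0103) and CASP10 (-0.20, adjusted p = 0.0206) passed too. With all libraries TNFRSF10D differed by -0.10 (adjusted p = 0.162) and CASP10 by -0.20 (adjusted p = 0.0524). With the medians of the libraries aligned, both passed (-0.13 and -0.22, adjusted p = 0.0167 and 0.00727), as did TNFRSF10D in a fit of the 2 groups alone (adjusted p = 0.0287). FAS differed by 0.03 (adjusted p = 0.799, 95% interval -0.09 to 0.16).

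**Figure D4:**
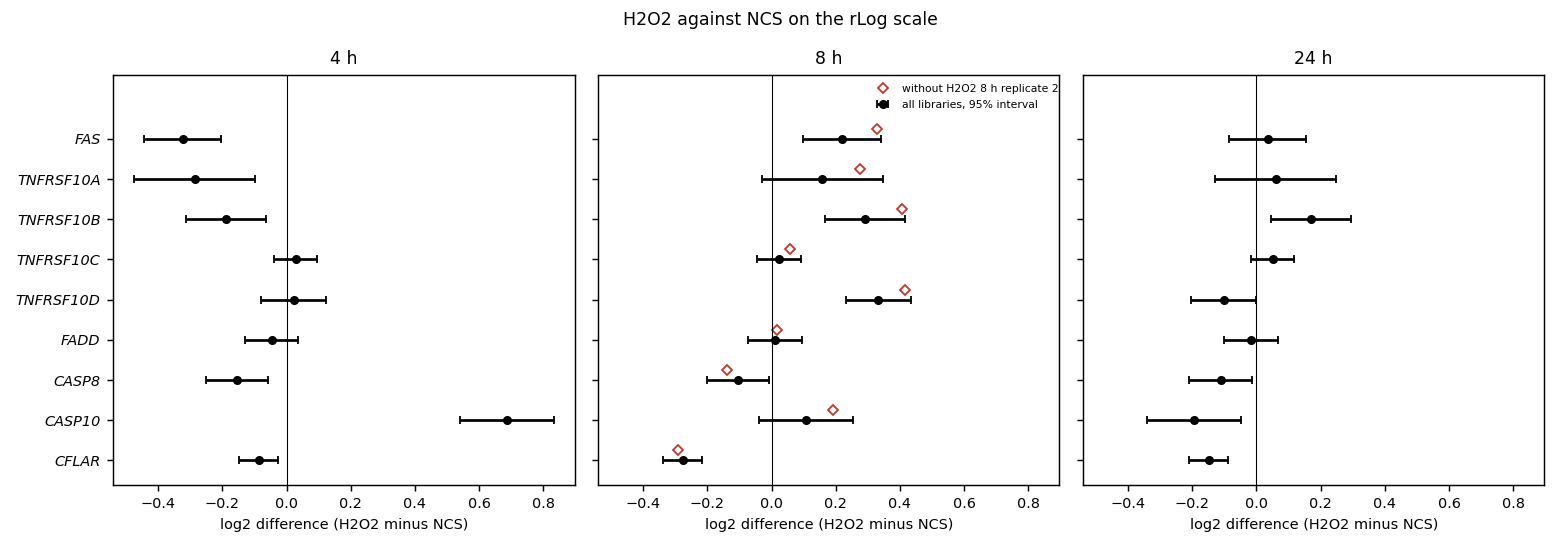
Difference between H2O2 and NCS (log2, rLog scale, horizontal axis, positive where H2O2 is higher) for each member at 4, 8 and 24 h, with filled points and 95% intervals from limma with all libraries and, at 8 h, open diamonds without replicate 2 of H2O2. FAS goes from -0.32 through 0.22 to 0.03, CASP10 starts at 0.69, and CFLAR is below 0 at all 3 times.

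The change of the treatment difference with time was tested as an interaction. From 4 h to 8 h it changed for 6 of the 9 members, against 32.7% of all genes, and without replicate 2 of H2O2 at 8 h 6 members passed as well. The difference between H2O2 and NCS rose by 0.54 for FAS (SE 0.08, adjusted p = 4.77e-05 from limma), 0.45 for TNFRSF10A (adjusted p = 0.0111), 0.48 for TNFRSF10B (adjusted p = 0.00025) and 0.31 for TNFRSF10D (adjusted p = 0.00171). Without replicate 2 of H2O2 at 8 h, these were 0.65, 0.56, 0.60 and 0.39. It went down for CASP10 (-0.58, SE 0.10, adjusted p = 0.000183) and CFLAR (-0.19, adjusted p = 0.00147), or by -0.49 and -0.21 without that library. From 4 h to 24 h, 4 members passed, against 39.4% of all genes: FAS (0.36, adjusted p = 0.00166), TNFRSF10A (0.35, adjusted p = 0.0373), TNFRSF10B (0.36, adjusted p = 0.00232) and CASP10 (-0.88, SE 0.10, adjusted p = 1.35e-06). The TNFRSF10A value at 24 h did not pass when H2O2 replicate 1, 2 or 3 at 4 h (adjusted p = 0.0525 to 0.0681), H2O2 replicate 1 or 2 at 24 h (adjusted p = 0.0541 and 0.0881), NCS replicate 1 or 3 at 4 h (adjusted p = 0.0803 and 0.105) or NCS replicate 1 or 3 at 24 h (adjusted p = 0.0931 and 0.0703) was left out, with values of 0.28 to 0.36. It also did not pass under quantile normalization (0.31, adjusted p = 0.0823), without the filter on low values (adjusted p = 0.0613) or without the mean-variance trend (adjusted p = 0.0503).

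Between successive times, 7 members changed from 4 h to 8 h in H2O2 (45.7% of all genes) and 6 from 8 h to 24 h (42.6%). In NCS, 1 changed from 4 h to 8 h (13.7%) and 3 from 8 h to 24 h (29.9%). The first of these NCS counts was 2 without replicate 2 of H2O2 at 8 h, which adds to the shared spread. From 4 h to 8 h in H2O2, 4 of the 5 receptors rose further, FAS by 0.49, TNFRSF10A by 0.54, TNFRSF10B by 0.47 and TNFRSF10D by 0.43 (adjusted p = 1.28e-06, 6.98e-05, 3.36e-06 and 8.04e-07 from limma). CASP10 fell by 0.48 (-0.48, adjusted p = 1.58e-05). FADD (0.12, adjusted p = 0.0179) and CASP8 (0.12, adjusted p = 0.0433) rose slightly, and CASP8 did not pass in 12 of the 21 fits with 1 library left out, among them those without H2O2 replicate 2 at 4 h (0.07, adjusted p = 0.253) or at 8 h (0.08, adjusted p = 0.186), or replicate 3 at 4 h (0.13, adjusted p = 0.0643) or at 8 h (0.11, adjusted p = 0.0966). The rest lay just past the threshold, at 0.0502 to 0.051. The FADD rise did not pass without H2O2 replicate 1 at 4 h (0.10, adjusted p = 0.0735) or replicate 3 at 8 h (0.10, adjusted p = 0.0871). Under quantile normalization neither FADD nor CASP8 passed (0.08 and 0.09, adjusted p = 0.121 and 0.0993), and CASP8 was also lost without the filter (adjusted p = 0.056) and in a fit of only the groups compared (adjusted p = 0.204). Without replicate 2 of H2O2 at 8 h, the receptor rises were 0.60, 0.66, 0.59 and 0.52 and the CASP10 fall 0.40 (-0.40).

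From 8 h to 24 h in H2O2, FAS fell by 0.35 (-0.35, adjusted p = 6.24e-05 from limma), TNFRSF10A by 0.23 (-0.23, adjusted p = 0.0451), TNFRSF10B by 0.17 (-0.17, adjusted p = 0.0285), TNFRSF10D by 0.17 (-0.17, adjusted p = 0.0074) and FADD by 0.11 (-0.11, adjusted p = 0.0346), and CFLAR rose by 0.31 (adjusted p = 7.89e-08). Without replicate 2 at 8 h the receptor falls were 0.46, 0.35, 0.28 and 0.25 (-0.46, -0.35, -0.28 and -0.25) and CASP10 fell by 0.26 (-0.26, adjusted p = 0.00354). FADD then no longer passed (-0.11, adjusted p = 0.0516). Without replicate 1 at 8 h, TNFRSF10A (-0.22, adjusted p = 0.112), TNFRSF10B (-0.12, adjusted p = 0.148) and TNFRSF10D (-0.12, adjusted p = 0.0577) did not pass, and without replicate 3 neither TNFRSF10A (-0.13, adjusted p = 0.279), TNFRSF10B (-0.10, adjusted p = 0.199) nor FADD (-0.08, adjusted p = 0.154) did. The TNFRSF10A fall did not pass in 15 of the 21 fits with 1 library left out, which include those without H2O2 replicate 1 or 3 at 24 h (-0.22 and -0.20, adjusted p = 0.105 and 0.134) and others at 0.0505 to 0.0538. Without H2O2 replicate 1 or 2 at 24 h, TNFRSF10B did not pass (-0.16 in each, adjusted p = 0.0801 and 0.0762), and without replicate 1 or 3 at 24 h FADD did not (-0.07 and -0.11, adjusted p = 0.203 and 0.0647). In a fit of only the groups compared, TNFRSF10A, TNFRSF10B, TNFRSF10D and FADD did not pass (adjusted p = 0.169, 0.238, 0.126 and 0.122), and under quantile normalization TNFRSF10B, TNFRSF10D and FADD did not (-0.10, -0.11 and -0.07, adjusted p = 0.166, 0.0551 and 0.158). Without the filter TNFRSF10A and TNFRSF10B (adjusted p = 0.0724 and 0.0539) and without the trend TNFRSF10A (adjusted p = 0.059) were lost, while CASP10 passed with aligned medians (-0.19, adjusted p = 0.0159) and without the trend (-0.18, adjusted p = 0.0493). Only 3 members passed in the fit without replicate 1 at 8 h, and 3 each without replicate 3 at 8 h or replicate 1 at 24 h. The fall of FAS passed in all 21 fits with 1 library left out (-0.46 to -0.29). CFLAR rose over both NCS intervals (0.20 and 0.18, adjusted p = 8.31e-05 and 7.62e-05), the only member of the 9 called in the first of them.

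Over the 21 libraries, FAS, TNFRSF10A and TNFRSF10B followed each other closely, with Pearson correlations of 0.945 to 0.962 among them. Among genes with a mean of at least 5 outside the 9, the most similar to FAS were PLK3 (0.972), SESN1 (0.958) and ACER2 (0.957), and to TNFRSF10A ACER2 (0.951) and STAT3 (0.947). For TNFRSF10B they were CDKN1A (0.96), the cell cycle inhibitor p21, GDF15 (0.957), a stress cytokine, and TP53INP1 (0.949). TNFRSF10D was most similar to DCUN1D3 (0.954), SAT1 (0.949) and MOSPD1 (0.941). CFLAR went with DGKA (0.973), PLEKHG5 (0.97) and MYO6 (0.961), and CASP8 with ZFP106 (0.9), TRAF5 (0.867) and PIK3CB (0.866). FADD had no close match, the highest being HTR1B (0.738), KAT7 (0.737) and FRMD3 (0.737). CASP8 and CASP10, next to each other on chromosome 2, had a correlation of -0.72. These libraries share 7 group means, and the correlations describe them only. A correlation also leaves out the size of a change. STAT3 differed from untreated cells by 0.06 to 0.25 over the treated groups, and TNFRSF10A by 0.43 to 0.97.

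The other genes of the extrinsic pathway were followed in a list of 44, all tested, 1 of them under an older symbol. In H2O2, 8 rose and 12 fell at 4 h, 17 rose and 8 fell at 8 h, and 12 rose and 14 fell at 24 h, at an adjusted p under 0.05 from limma. In NCS, 6 rose and 6 fell at 4 h, 9 rose and 9 fell at 8 h, and 10 rose and 13 fell at 24 h. In either direction these are 45.5%, 56.8% and 59.1% of the list in H2O2 at the successive times, against 45.9%, 37.4% and 40.0% of all genes tested, and 27.3%, 40.9% and 52.3% in NCS, against 17.2%, 23.9% and 38.0%. The list's median difference lay between -0.01 and 0.02 in these comparisons, and that of all genes tested was 0.00 in each.

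Of the 5 ligand genes, FASLG, TNFSF10 (TRAIL), TNF and TNFSF15 had mean values below 1 and were not called in any of the 6 comparisons. At such low values the rLog shrinkage is strongest, and the lack of a call says little about the counts. Between H2O2 and NCS at 4 h, TNFSF10 differed by 0.04 (adjusted p = 0.0212 from limma). LTA, which encodes lymphotoxin alpha, a ligand of TNF receptors, was at 2.63, 2.62 and 2.62 in untreated cells and at 3.57, 3.39 and 3.41 in H2O2 at 4 h, above all other libraries (0.83, SE 0.04, adjusted p = 2.9e-12). It had a low mean, 2.76. It was 0.11 higher in H2O2 at 8 h (adjusted p = 0.0264), and NCS at 4 h differed by 0.00 (adjusted p = 0.992). Like CASP10, at 4 h it was above its NCS level in H2O2 (0.83, adjusted p = 4.47e-12).

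BIRC3, a ubiquitin ligase (cIAP2) of TNF receptor complexes and a known NF-kB target, was at 8.03, 8.06 and 7.97 in untreated cells and at 8.84, 8.72 and 8.76 in NCS at 4 h. It was at 8.03, 7.89 and 7.98 in H2O2 at 4 h, at 7.51, 7.57 and 7.45 in H2O2 at 24 h and at 7.51, 7.40 and 7.30 in NCS at 24 h. It rose in NCS by 0.76 and 0.50 at the first 2 times (SE 0.06 each, limma's adjusted p = 5.53e-08 and 4.46e-06) and fell by 24 h in both treatments (-0.51 in H2O2 and -0.61 in NCS). H2O2 and NCS differed by -0.81 and -0.64 at 4 h and 8 h (adjusted p = 4.65e-09 and 2.41e-07). TRAF2, the adaptor that holds cIAP proteins at the receptor, fell by 24 h in both treatments (-0.62 and -0.60, adjusted p = 4.51e-09 and 7e-09), as did CASP8AP2, a caspase-8-associated protein with roles in histone gene expression and S phase (-0.65 and -0.63, adjusted p = 1.36e-10 and 2.46e-10). PTPN13, a phosphatase that binds the FAS tail, was at 9.84, 9.86 and 9.79 in untreated cells, at 10.61, 10.64 and 10.71 in H2O2 at 24 h and at 10.23, 10.22 and 10.23 in NCS at 24 h. It rose by 0.82 in H2O2 (adjusted p = 1.91e-12) and 0.39 in NCS (adjusted p = 7.51e-08) at 24 h and was 0.43 higher in H2O2 than in NCS (adjusted p = 1.17e-07).

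**Figure D5:**
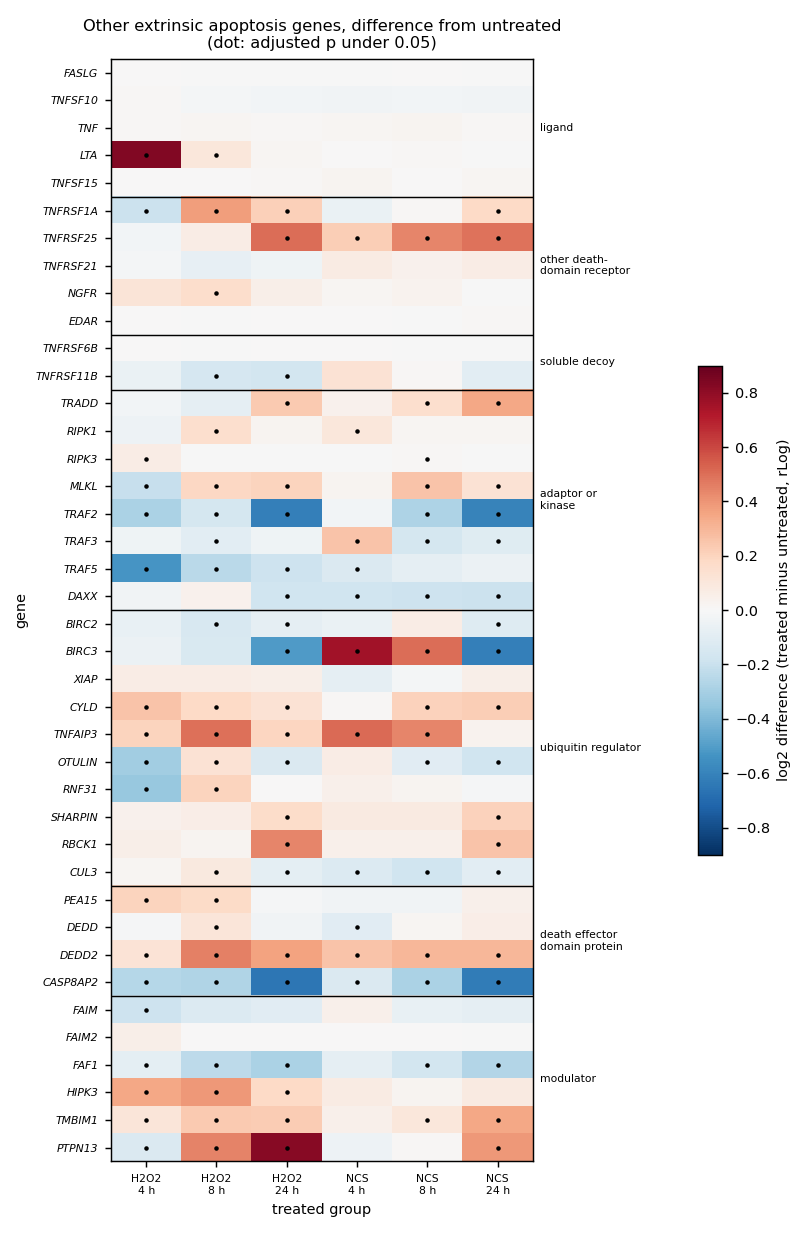
Difference from untreated cells (log2, rLog scale, color) for other ligands, receptors, adaptors and regulators of the extrinsic apoptosis list, in rows grouped by role, in the 6 treated groups in columns, with a dot where the adjusted p from limma is under 0.05. LTA stands out in H2O2 at 4 h (0.83), BIRC3 in NCS at 4 h (0.76) and PTPN13 in H2O2 at 24 h (0.82).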

How the data were processed

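RNA-seq of hTERT-HPNE cells covered 21 libraries. Per the labels and the study's methods, libraries were made with a stranded mRNA kit, and the authors aligned reads with HISAT2, counted them with htseq-count in Galaxy and applied the rLog transformation of DESeq2. These deposited values, on a log2 scale, lay between -2.314 and 20.307. The submitters' processing notes name hg19, and tool versions are not given in the sources used here. The values hold no counts, so depth is unknown and no interval or floor based on it was calculated.

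The authors tested counts with DESeq2, and limma 3.58.1 in R 4.3.3 took its place here because the unit is log2. Of 23368 genes, 3674 at 0 in every library were left out. One fit of 7 groups with a mean-variance trend gave 15 comparisons and an F test, with Benjamini-Hochberg adjustment over 19694 genes. Changed means an adjusted p under 0.05. The fit was tested on simulated data with known changes. The members and lists were chosen with earlier results of these data known. Named are all 9 members, list genes that changed by over 0.58 from untreated cells, and the 3 genes most correlated with each member that has a mean of at least 5. OTULIN was matched as FAM105B through RefSeq synonyms. Alternatives were aligned medians, quantile normalization, a mean of at least 5, no filter, no trend, a replicate block, only the groups compared, other thresholds, and each library left out. Other steps ran in Python 3.11.15 (pandas 2.3.3, numpy 2.4.6, matplotlib 3.10.9, scipy 1.17.1). Promoter windows of the TRAIL receptor genes and of CASP10 were not used here. Some genes that these rules would name are not reported here.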

Additional observations from a re-analysis of the deposited data

Results flagged for a closer look

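The difference between H2O2 and NCS changed with time for several members, tested as an interaction in limma on the rLog scale with adjustment over all genes. Between 4 h and 8 h it changed by 0.54 for FAS, 0.45 for TNFRSF10A, 0.48 for TNFRSF10B, 0.31 for TNFRSF10D, -0.58 for CASP10 and -0.19 for CFLAR. Between 4 h and 24 h it changed by 0.36 for FAS, 0.35 for TNFRSF10A, 0.36 for TNFRSF10B and -0.88 for CASP10. Each was singled out because the effect of one treatment against the other differed between times. All 10 kept their direction in all 21 fits with 1 library left out, and all but that of TNFRSF10A between 4 h and 24 h passed in each of them. The TNFRSF10A value between 4 h and 24 h also did not pass under quantile normalization (0.31, adjusted p = 0.0823), without the filter on low values (adjusted p = 0.0613) or without the mean-variance trend (adjusted p = 0.0503).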

How the results depend on the processing

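No called value of a member turned its direction under any alternative run. Some uncalled values given above did. CFLAR in NCS at 4 h was -0.0039 with aligned medians. With quantile normalization, TNFRSF10D between H2O2 and NCS at 4 h was -0.0277 and TNFRSF10C between them at 8 h -0.0099. With 1 library left out, these ran from -0.0099 to 0.0193, from -0.0053 to 0.0536 and from -0.0007 to 0.0587. CASP10 in NCS at 4 h then ran from -0.017 to 0.0617 and CASP8 in NCS at 24 h from -0.0261 to 0.0347. Uncalled values not given above are not listed here. Some of those turned as well, such as FADD in H2O2 at 8 h (-0.022 to 0.0299 with 1 library left out). Of the 9 members, the number changed with a log2 difference over 0.58 against untreated cells was 3, 4 and 4 in H2O2 at 4, 8 and 24 h, and 3, 3 and 4 in NCS. Over 1 it was 2 in H2O2 at 8 h and 0 elsewhere. Between H2O2 and NCS it was 1, 0 and 0 over 0.58 at 4, 8 and 24 h, between successive times 0, and for the interactions 0 and 1, and 0 over 1 in all of these. In a fit of only the groups compared, 4 members changed in H2O2 at 8 h, 2 differed between H2O2 and NCS at 8 h, 2 changed in H2O2 from 8 h to 24 h and 2 in NCS from 4 h to 8 h. Between H2O2 and NCS at 24 h, 5 differed with aligned medians and 1 without the filter or without the trend. With quantile normalization, 3 changed in H2O2 from 8 h to 24 h and 2 in NCS from 4 h to 8 h, and with a mean of at least 5, 2 in the last comparison. The causes were not tested. With 1 library left out, the numbers were 6 to 8, 4 to 7 and 6 to 7 in H2O2 at 4, 8 and 24 h, 4 to 4, 5 to 5 and 6 to 7 in NCS, and 4 to 6, 4 to 7 and 1 to 4 between H2O2 and NCS. Between successive times they were 5 to 7 and 3 to 7 in H2O2 and 1 to 2 and 2 to 3 in NCS, and for the interactions 6 to 6 and 3 to 5. The share of all genes called is not given for the limit of 1 or for the alternative fits. Nor is it given for the limit of 0.58 outside the comparisons with untreated cells. These counts therefore describe how the calls moved with the setting and are not set against all genes.

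Same-numbered libraries had a mean correlation of deviations of 0.0274 and others of -0.0137, and in 0 of 13 comparisons were all 3 pairs over 0.1, so the numbers were not taken as pairing. With the replicate number as a block, 6 members changed in NCS at 24 h, 6 in H2O2 from 4 h to 8 h and 5 from 8 h to 24 h, and the calls lost were TNFRSF10C in NCS at 24 h (0.09, adjusted p = 0.0526), CASP8 in H2O2 from 4 h to 8 h (0.12, adjusted p = 0.0555) and TNFRSF10A in H2O2 from 8 h to 24 h (-0.23, adjusted p = 0.056). The block changed no other call of a member.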
